A study of Mus musculus with 4 samples.

Results

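Sorted Sox1 neural stem cells were compared with undifferentiated mouse embryonic stem (ES) cells, as the difference between the array of the first and the array of the second. These are 2 of the 4 arrays of the series, with 1 array a side. The comparison covers 18193 genes, each represented by the probe set with the highest mean log2 signal over the 4 arrays among probe sets that carry a single gene symbol. The other arrays hold cerebellar granule cells of postnatal day 6 and cells labelled HB9-GFP+, a reporter for the motor neuron factor encoded by Mnx1. The growth protocol, worded alike for all samples, describes ES cells carrying the HB9 reporter, kept with leukemia inhibitory factor at 1000 U/ml on mouse embryonic fibroblasts treated with mitomycin C. It also gives sonic hedgehog, retinoic acid at 0.1 uM and purmorphamine, an agonist of the hedgehog pathway, at 0.2 uM from day 5 to day 9 of differentiation, with a sort of HB9-GFP+ cells on day 8. The labels call the neural stem cells sorted. They do not give the ES line these cells came from, how they were sorted, whether they met those factors, or how many cultures stand behind an array. Line, culture, sort and cell type therefore cannot be told apart.

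ES cells are the cultured form of the inner cell mass and keep the ability to make every tissue through a network of transcription factors around Pou5f1, Sox2 and Nanog, supported by leukemia inhibitory factor. Neural stem cells of the early neural tube are polarised epithelial cells that divide, carry Sox family factors of the Sox1 to Sox3 group, and take on a position along the head-to-tail and back-to-belly axes. Retinoic acid acts on the first axis through the Hox genes, and sonic hedgehog and bone morphogenetic proteins act on the second.

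The 2 arrays were alike in the number of genes detected, 9420 on the ES array and 9376 on the Sox1 array, with 8264 detected on both. A gene was called detected at a signal of 157.5, which is 1 log2 unit above a low level of 78.8 set from the medians of the 4 arrays, and lower signals were raised to the low level before differences were taken. Calls of higher or lower required detection on the brighter array and a difference of at least 4-fold. Where the dimmer array was at the low level the fold is a bound and carries "at least". No fold is given, and both signals stand alone, where the dimmer of the pair fell under detection but above the low level. The 3' to 5' ratio of control probe sets, a measure of RNA integrity, was 4.55 on the ES array and 5.08 on the Sox1 array for actin, and 1.99 and 3.68 for Gapdh. The part of these ratios in the differences was not tested. No difference has a replicate check. The only technical measures were the SD of the difference over 18 hybridisation controls, 0.0718 on the log2 scale, and the pooled SD of the difference between probe sets of 1 gene, 0.56, and neither holds biological variation. For many lists where another processing choice moved a count of calls or a median by over 1.5 times, its value stands beside the result. This was not done for every list, so a result without such a value is not thereby stable. The choices named are the mean over all probe sets of a gene ("averaged probe sets"), the removal of probe sets that can bind several transcripts ("unshared probe sets"), quantile or reference-gene scaling, a low level at the 25th or 60th percentile, and log2 of the signal plus the low level.

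By this rule 653 genes were higher on the Sox1 array and 549 were lower. That is 3.59% and 3.02% of all genes measured, and 6.2% and 5.21% of the 10532 genes detected on either array. Calls in both directions together made up 6.61% of the genes measured and 11.4% of those detected, which are the shares to read list counts against. The median difference over all genes was 0.00. For 224 of the higher genes and 207 of the lower genes the dimmer array was at the low level. In bulk RNA of this kind, fewer cells of a type and less RNA per cell cannot be told apart.

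**Figure D1:**
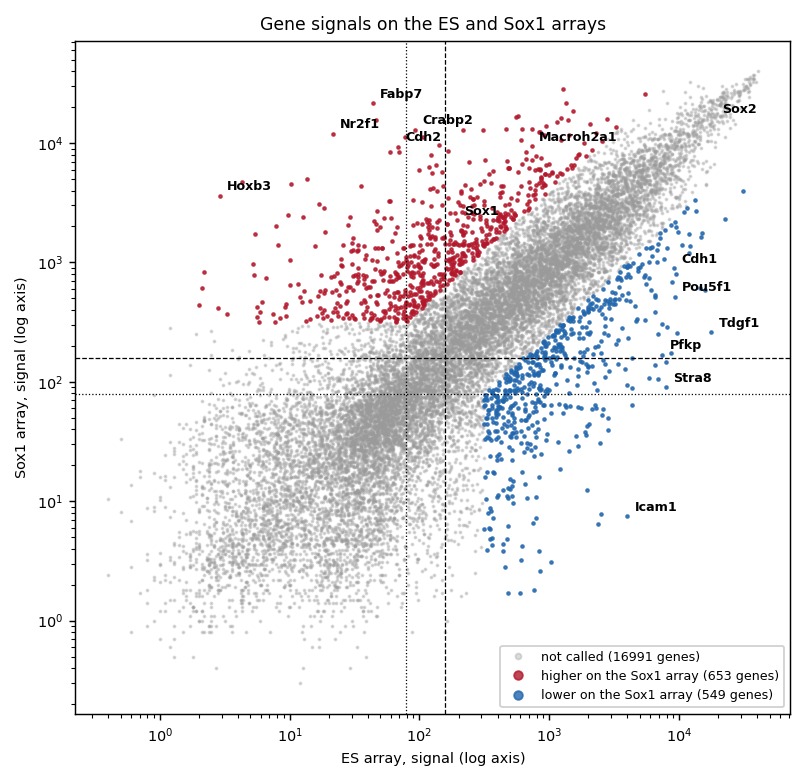
Signal of each of the 18193 genes on the ES array (horizontal, log axis) against the Sox1 array (vertical, log axis), with 1 point per gene and 14 genes named. The dotted lines mark the low level of 78.8 and the dashed lines the detection level of 157.5, and the 653 higher genes lie above the diagonal band, with Fabp7 and Nr2f1 far from it, while the 549 lower genes lie below it.

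Among genes at or above the low level on both arrays, the 12 largest differences towards the Sox1 array included genes of neural progenitors, of retinoic acid handling and of the cell cycle. Crabp2, which carries retinoic acid to its nuclear receptors, had a signal of 92.2 on the ES array and 12979 on the Sox1 array. Ccnd2, a D-type cyclin that drives entry into the cell cycle, was at 107.5 on the ES array and 11250.1 on the Sox1 array, and its other probe sets also differed by over 4-fold. Sox11, a factor of committed neural precursors, was at 141 on the ES array and 9556 on the Sox1 array. The kinase gene Hipk2 was at 123 on the ES array and 7941 on the Sox1 array, though another of its detected probe sets gave a log2 difference of only 0.68. Epha7, a receptor for ephrins that keeps neural domains apart, was at 99.6 on the ES array and 5890.4 on the Sox1 array. Pcdh8, a protocadherin of the paraxial mesoderm and brain, was 58.9-fold higher, at 217 on the ES array and 12809.8 on the Sox1 array. Its probe set, like those of Ildr2, Prss23, AF067061, Plagl1 and Phc2, is of a type that can bind related transcripts. The homeobox gene Irx3 was 51.2-fold higher, at 166 on the ES array and 8509 on the Sox1 array, and Igdcc3, an immunoglobulin-family surface protein, was 41.9-fold higher, at 308 on the ES array and 12906 on the Sox1 array. Fst, the secreted inhibitor of activins, was at 134 on the ES array and 6542 on the Sox1 array, and Pou3f3, a POU factor of the neural tube, at 124 on the ES array and 5589.7 on the Sox1 array. Fndc3c1 was at 117.5 on the ES array and 6248 on the Sox1 array and Ildr2 at 149 on the ES array and 5684 on the Sox1 array, where a further Ildr2 probe set gave 1.37.

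The 12 brightest genes measured against an ES array at the low level included further genes of neural tissue. Fabp7, which binds fatty acids in radial glia, was at least 273-fold higher, at 43.7 on the ES array and 21466 on the Sox1 array. Ptn, the secreted growth factor pleiotrophin, was at least 199.8-fold higher, at 46.5 on the ES array and 15732 on the Sox1 array, with a further probe set at a log2 difference of 1.14. Nr2f1, an orphan nuclear receptor that patterns hindbrain and cortex, was at least 152-fold higher, at 21.5 on the ES array and 12007 on the Sox1 array. These 3 genes were also bright on the granule cell array, at 17695, 17905 and 8072. Tox3 was at least 142-fold higher, at 77.9 on the ES array and 11221 on the Sox1 array, and Prss23, a secreted protease, at least 106-fold higher, at 59.5 on the ES array and 8385 on the Sox1 array. Zfp503, a zinc finger repressor, was at 4.3 on the ES array and 4705 on the Sox1 array, at least 59.7-fold higher. The noncoding RNA Pantr1, which lies beside Pou3f3, was at 10.2 on the ES array and 4531 on the Sox1 array, at least 57.5-fold higher. Cdh2, Zic1, Itgb8, Ednrb and Hoxb3 belong to the same group and are described with their families.

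In the other direction the 12 largest differences included genes of pluripotency and of the germline. Tdgf1, the co-receptor for Nodal, was 67.5-fold lower on the Sox1 array, at 17646 on the ES array and 261.5 on the Sox1 array. Stra8, a gene of retinoic acid response and meiotic entry, was at 7962 on the ES array and 90.3 on the Sox1 array, and Fbxo15, an F-box gene that marks ES cells, at 6858 on the ES array and 105 on the Sox1 array. Dnmt3l, the cofactor of de novo DNA methylation, was at 5823 on the ES array and 107 on the Sox1 array. Pfkp, the platelet-type phosphofructokinase of glycolysis, was 44.0-fold lower, at 7413 on the ES array and 168 on the Sox1 array. Dppa2, a chromatin factor of early embryos, was 37.6-fold lower, at 9677 on the ES array and 258 on the Sox1 array. Mymx, the gene of a small membrane protein of muscle cell fusion, was 49.3-fold lower, at 8602 on the ES array and 174 on the Sox1 array. Morc1, which silences transposons in the germline, was at 4305 on the ES array and 88.6 on the Sox1 array, and Ooep, an oocyte gene, at 6502 on the ES array and 138 on the Sox1 array. Fam25c was at 7871 on the ES array and 146 on the Sox1 array, AU018091 at 3992 on the ES array and 94.0 on the Sox1 array and Mageb16 at 3835 on the ES array and 127 on the Sox1 array.

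Among the 12 brightest genes of the ES array that were at the low level on the Sox1 array, Icam1, the adhesion receptor for leukocyte integrins, had a signal of 3999 on the ES array and 7.5 on the Sox1 array, at least 50.8-fold lower. Triml1, a tripartite-motif gene of early embryos, was at least 55.0-fold lower, at 4329.9 on the ES array and 63.9 on the Sox1 array. Zfp296, a zinc finger gene of the pluripotency network, was at least 32.9-fold lower, at 2592 on the ES array and 59.7 on the Sox1 array, and Tbx3, a T-box factor of naive pluripotency, at least 28.5-fold lower, at 2241 on the ES array and 63.8 on the Sox1 array. Aqp3, a water and glycerol channel, was at 2536.5 on the ES array and 53.0 on the Sox1 array, at least 32.2-fold lower. Calcoco2, an autophagy receptor, was at 2856 on the ES array and 39.3 on the Sox1 array, at least 36.3-fold lower. Ak7 was at 2464 on the ES array and 31.0 on the Sox1 array, Lrrc2 at 2377 on the ES array and 6.5 on the Sox1 array, A2m at 2289 on the ES array and 59.8 on the Sox1 array and Zfp936 at 2128 on the ES array and 59.4 on the Sox1 array. Usp17la, at 2814 on the ES array and 50.2 on the Sox1 array, and AF067061, at 2510.3 on the ES array and 7.8 on the Sox1 array, belong to families of near-identical genes whose probe sets may not tell members apart.

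The labels were read beside cell type markers. The marker lists were written with earlier results of these data known, so their counts do not test the labels. Of 34 pluripotency genes measured, all were detected on the ES array and 21 on the Sox1 array. By the 4-fold rule 24 were lower and 0 higher, and the list had a median difference of -3.51 on the log2 scale. Pou5f1 was 18-fold lower, at 9255.5 on the ES array and 514 on the Sox1 array, and Nanog at 4685.5 on the ES array and 324 on the Sox1 array. Zfp42, a zinc finger gene used as an ES cell marker, was at 15912.5 on the ES array and 593 on the Sox1 array, and L1td1, an RNA-binding protein of ES cells, at 8085 on the ES array and 287 on the Sox1 array. Esrrb, an orphan nuclear receptor of the naive state, was at 3409.8 on the ES array and 140.5 on the Sox1 array, with a further probe set at -1.85. Several of these transcripts were thus dimmer on the Sox1 array yet still above detection there, and Dppa5a, an RNA-binding ES cell protein, remained at 3928 against 31169.8.

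Other members of this list were not called. Sox2, which serves both pluripotent and neural cells, was at 18877 on the ES array and 16173 on the Sox1 array, a ratio of 1.17. Sall4, a zinc finger factor of ES cells, was at 6565 on the ES array and 6335 on the Sox1 array, and the glucose transporter gene Slc2a3 at 20053 on the ES array and 11865 on the Sox1 array. Trim71, a target of let-7 that represses messenger RNAs, was at 2321 on the ES array and 3190.2 on the Sox1 array, with another probe set at a log2 difference of -0.21. Lin28a, which blocks the maturation of let-7, was at 2006 on the ES array and 6056 on the Sox1 array. On the granule cell array Sall4 was at 19.5, Trim71 at 12.2 and Lin28a at 6.2. These 3 genes were therefore bright on both stem cell arrays and undetected in the granule cell sample. That sample detected 18 of 19 astrocyte and oligodendrocyte genes and 38 of 43 neural progenitor genes beside 41 of 53 neuronal ones, so it is not read here as neurons alone.

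Sox1 itself, by which the neural stem cells are named, was 11.7-fold higher, at 193.5 on the ES array and 2262 on the Sox1 array. Averaged probe sets gave Sox1 a log2 difference of 0.95, which is not a call. The Sox1 array detected all 43 genes of the neural progenitor list, and the ES array 22. Of them 29 were higher by the 4-fold rule and 1 lower, and the median log2 difference was 3.55. This list too was written with earlier results of these data known, so its counts do not test the label. Averaged probe sets left 19 higher and a median of 1.69. Cdh2, or N-cadherin, was at least 118-fold higher, at 68.5 on the ES array and 9286 on the Sox1 array. Zic1, a zinc finger factor of the dorsal neural plate, was at least 108-fold higher, at 70.0 on the ES array and 8468 on the Sox1 array. Pax6 was 13.8-fold higher, at 218 on the ES array and 2997 on the Sox1 array, although another probe set for it gave a log2 difference of 1.42. Prom1, the surface protein prominin of neuroepithelial cells, was at 485 on the ES array and 6147 on the Sox1 array. Intermediate filament genes differed less, with Nes, or nestin, at 128 on the ES array and 532 on the Sox1 array and Vim at 8028 on the ES array and 21685 on the Sox1 array. The 1 lower member was Mfge8, a secreted protein that bridges cells to integrins, at 3644 on the ES array and 536 on the Sox1 array. Mfge8 had no other kind of probe set, and its call drops out with unshared ones.

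Relatives of Pou5f1 and Sox2 differed from paralog to paralog. Of 29 POU and Sox genes measured 10 were higher and Pou5f1 was the 1 lower. Pou3f3 was at 124 on the ES array and 5589.7 on the Sox1 array, Pou3f2, a further POU factor of neural precursors, at 44.4 on the ES array and 698 on the Sox1 array, and Pou3f4 at 49.5 on the ES array and 324.5 on the Sox1 array. A further probe set for Pou3f2 gave 1.06. Sox21 was 28.4-fold higher, at 242 on the ES array and 6877.5 on the Sox1 array, and Sox3 was at 140.4 on the ES array and 2255 on the Sox1 array. Sox4 was bright on both, at 11032 on the ES array and 26731 on the Sox1 array. Sox9, which precedes gliogenesis, was at 9.4 on the ES array and 450.5 on the Sox1 array, with another probe set at 1.40, and Sox6 was at 70.6 on the ES array and 523 on the Sox1 array. Sox17, a factor of endoderm, was at 444.5 on the ES array and 220 on the Sox1 array, and Sox10, a factor of neural crest and oligodendrocytes, at 86.3 on the ES array and 119.5 on the Sox1 array.

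Neuronal genes were present on the Sox1 array as well. Of 53 measured, 33 were detected there and 16 on the ES array, and 18 were higher and 1 lower. Averaged probe sets gave 11 and 0, and the median log2 difference of the list went from 0.87 to 0.37. The summed signal of the list was 15399 for ES cells, 35229.5 for Sox1 cells and 168943 for granule cells. Proneural factors were among the higher genes, with Neurog1 at 2.1 on the ES array and 614 on the Sox1 array, Neurog2 at 28.3 on the ES array and 619 on the Sox1 array and Neurod4 at 10.1 on the ES array and 1039 on the Sox1 array. Nhlh2, a helix-loop-helix factor of newborn neurons, was at least 17.9-fold higher, at 25.6 on the ES array and 1407 on the Sox1 array. Elavl4, a neuronal RNA-binding protein, was at 101 on the ES array and 1675 on the Sox1 array, Nefm, a neurofilament subunit, at 56.2 on the ES array and 1096 on the Sox1 array, and Dcx, the microtubule protein of migrating neurons, at 2.2 on the ES array and 837 on the Sox1 array. A further Dcx probe set gave 1.17. Map2, a dendritic microtubule protein, was at least 13.6-fold higher, at 38.2 on the ES array and 1068 on the Sox1 array. Synaptic genes such as Snap25, at 21.6 on the ES array and 106 on the Sox1 array, and Slc17a6, at 5.9 on the ES array and 85.8 on the Sox1 array, were undetected. Stmn2 was at 5260.3 on the ES array and 2467 on the Sox1 array and Mapt, which encodes tau, was the 1 lower gene, at 542 on the ES array and 83.0 on the Sox1 array, with another probe set at -1.03. The part of neurons in any difference described here was not tested.

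Markers of other cells were read against the share of all genes detected, 51.8% on the ES array and 51.5% on the Sox1 array. Of 26 fibroblast genes measured 9 were detected on the ES array and 10 on the Sox1 array, with summed signals of 6871 and 10744. The defining collagen and matrix genes Col1a1, Col3a1, Dcn, Lum and Postn were undetected on both, while Col1a2 was at 134 on the ES array and 701 on the Sox1 array and Acta2, smooth muscle actin, at 171 on the ES array and 1551 on the Sox1 array. Col5a2 was at 127 on the ES array and 928 on the Sox1 array, Tagln at 13.3 on the ES array and 320.5 on the Sox1 array and Thy1, a surface glycoprotein, at 387 on the ES array and 55.6 on the Sox1 array. Of 22 genes of microglia, blood and vessels 6 were detected on the ES array and 0 on the Sox1 array, with sums of 2126.5 and 668.8, and Aif1, Ptprc, Cdh5 and Kdr were undetected on both, while Vwf, a clotting factor of endothelium, was at 392 on the ES array and 33.5 on the Sox1 array. Of 28 genes of mesoderm and endoderm 10 were detected on each, with sums of 5457 and 6131. In that list Ttr, transthyretin, was at 24.7 on the ES array and 1063 on the Sox1 array, Afp, alpha-fetoprotein, at 16.6 on the ES array and 528 on the Sox1 array, and Gata6, a factor of primitive endoderm, at 458 on the ES array and 108 on the Sox1 array. Neural crest genes numbered 7 detected of 14 on each array, with sums of 5739.6 and 3588, and Tfap2b was at 30.4 on the ES array and 963 on the Sox1 array, with another probe set at 1.80. Tfap2c, also active in ES cells, was 4.05-fold lower, at 1977 on the ES array and 488.5 on the Sox1 array, with another probe set at -1.71. Its call was lost under quantile and reference-gene scaling, with averaged or unshared probe sets and with log2 of the signal plus the low level. Of 19 genes of astrocytes and oligodendrocytes 8 and 7 were detected, with sums of 20855 and 23119, and Gfap, Aqp4, Mog and Olig2 were undetected on both. The part of these other cells in the results was not tested.

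**Figure D2:**
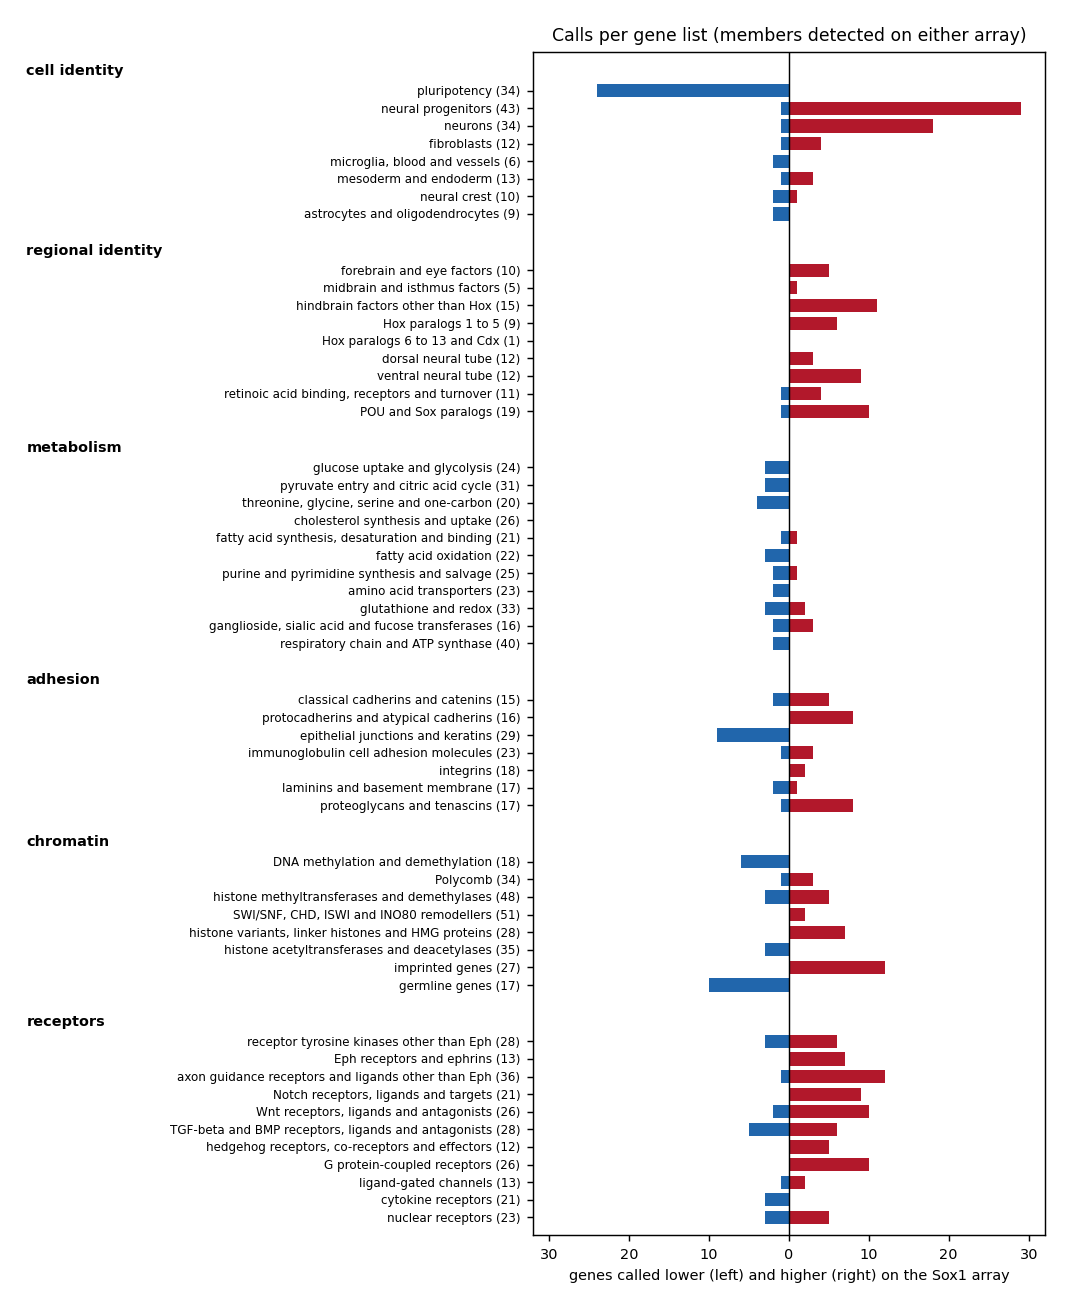
Number of genes called lower (left, blue) and higher (right, red) on the Sox1 array in each of 54 gene lists, grouped by theme, with the number of members detected on either array in brackets. Pluripotency, epithelial junction, germline and DNA methylation lists hold only lower calls, and hindbrain, Hox 1 to 5, imprinted, Notch and hedgehog lists only higher ones.

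Of 179 regional identity genes measured, 92 of them detected on either array, 47 were higher on the Sox1 array and 2 lower. Hox genes lie in clusters whose order matches their anterior limits in the neural tube. Of 13 Hox genes of paralog groups 1 to 5 measured, 8 were detected on the Sox1 array and 1 on the ES array, and 6 were higher with 0 lower. Hoxb1, which marks the fourth rhombomere, was at least 26.8-fold higher, at 46.6 on the ES array and 2111 on the Sox1 array. Hoxa2, the most anterior of the Hox genes in the hindbrain, was at least 26.0-fold higher, at 28.1 on the ES array and 2052 on the Sox1 array. Hoxb3 was at least 46.0-fold higher, at 2.9 on the ES array and 3626 on the Sox1 array, Hoxb2 at least 13.4-fold higher, at 42.8 on the ES array and 1052 on the Sox1 array, and Hoxa3 at least 7.52-fold higher, at 22.7 on the ES array and 592 on the Sox1 array. Another Hoxa3 probe set gave 1.65. Hoxb4 was at 89.5 on the ES array and 392 on the Sox1 array, Hoxa4 at 38.2 on the ES array and 171 on the Sox1 array and Hoxa5 at 131 on the ES array and 448 on the Sox1 array. Hoxd1 went the other way without a call, as the 1 member detected on the ES array, at 196 on the ES array and 31.8 on the Sox1 array. Hoxb5, Hoxc4, Hoxc5 and Hoxd3 were undetected on both arrays. The median of this list, 1.77 on the log2 scale, became 0.69 with averaged and 0.00 with unshared probe sets.

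No member of paralog groups 6 to 13 or of the Cdx family was detected on the Sox1 array, out of 23 measured. The nearest was Hoxa9, at 77.1 on the ES array and 152 on the Sox1 array. Cdx2, a caudal regulator of trunk Hox genes, was at 6.4 on the ES array and 49.0 on the Sox1 array, and Hoxc8, a gene of the thoracic cord, at 20.7 on the ES array and 69.3 on the Sox1 array. The 1 detected on the ES array was Hoxb13, at 186 on the ES array and 14.4 on the Sox1 array. The Hox genes detected on the Sox1 array thus covered groups 1 to 5 and no further.

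Hindbrain factors outside the Hox clusters were higher or not called. Of 19 measured, 11 were higher and 0 lower, and their median was 2.47 on the log2 scale. Unshared probe sets gave a median of 1.64. Egr2, which sets the third and the fifth rhombomere, was at least 28.1-fold higher, at 44.6 on the ES array and 2210.1 on the Sox1 array. The cofactors that bind DNA with Hox proteins were bright, with Meis1 at 120.3 on the ES array and 4098 on the Sox1 array, Meis2 at 610.5 on the ES array and 10527 on the Sox1 array, and Pbx3 at 869 on the ES array and 7429.7 on the Sox1 array. A further Meis2 probe set gave 0.94. Nr2f2 was at least 17.7-fold higher, at 33.6 on the ES array and 1396 on the Sox1 array, with another probe set at 1.56, and Irx5 at 48.2 on the ES array and 1322 on the Sox1 array. Gbx2, which sets the anterior hindbrain border and is also active in ES cells, was at 457.5 on the ES array and 1424 on the Sox1 array. Atoh1 and Ptf1a, factors of the rhombic lip and of cerebellar inhibitory precursors, were undetected, at 47.0 and 88.0 on the Sox1 array.

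Forebrain and eye genes formed a smaller set. Of 26 measured, 9 were detected on the Sox1 array and 1 on the ES array, and 5 were higher. With the low level at the 60th percentile 2 were higher. Sp8, a zinc finger factor of the anterior forebrain and limb ridge, was at least 30.3-fold higher, at 29.3 on the ES array and 2387 on the Sox1 array. Lhx2, a LIM factor of cortex and eye field, was at least 15.9-fold higher, at 33.3 on the ES array and 1251 on the Sox1 array. Six6, of the eye and pituitary, was at least 6.00-fold higher, at 27.9 on the ES array and 472 on the Sox1 array, and Fezf2, of the forebrain, at least 5.93-fold higher, at 6.1 on the ES array and 467 on the Sox1 array. Tcf7l2 was at 116 on the ES array and 519 on the Sox1 array. Defining forebrain genes Nkx2-1, Rax, Emx1, Tbr1, Dlx1 and Dlx2 were all undetected on both arrays. The list therefore held a detected part, with Emx2 at 19.3 on the ES array and 263 on the Sox1 array and Fezf1 at 24.8 on the ES array and 294 on the Sox1 array detected but not called, and an undetected part.

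Of 17 midbrain and isthmus genes 5 were detected on the Sox1 array and 1 was called. En2, an engrailed gene of midbrain and cerebellum, was at 138 on the ES array and 1205 on the Sox1 array. Its usual companions were undetected on the Sox1 array, with En1 at 67.6, Pax5 at 71.6, Fgf8 at 66.5 and Wnt1 at 99.2. Otx2, which marks forebrain and midbrain and also pluripotent cells, was detected on both, at 1029 on the ES array and 631 on the Sox1 array. Spry2, a feedback inhibitor of growth factor signalling, was bright on both, at 3762 on the ES array and 6056 on the Sox1 array.

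**Figure D3:**
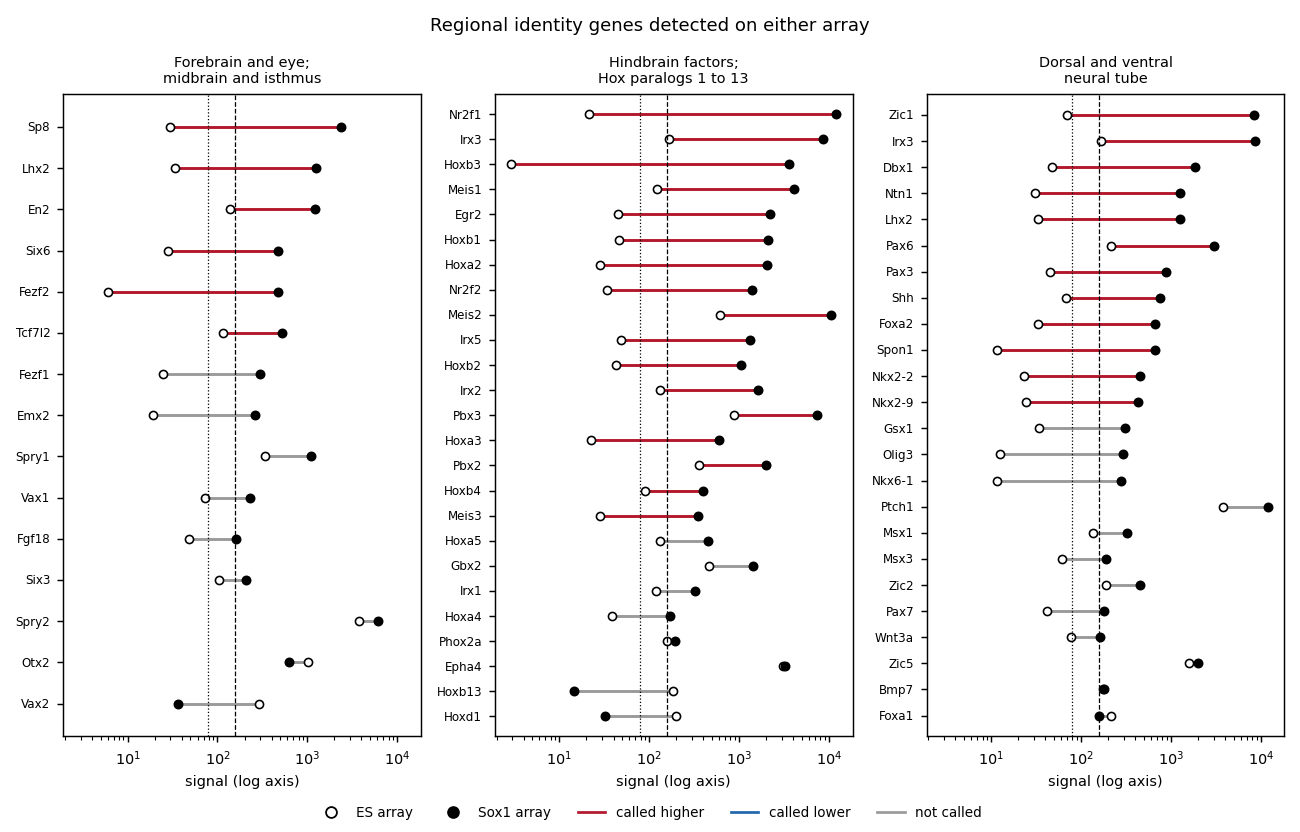
Signals (log axis) of the genes detected on either array in the 7 lists of head-to-tail and back-to-belly position, with the ES array as open circles and the Sox1 array as filled circles joined by a line, red where called higher and grey where not called. Dotted and dashed lines mark the low and detection levels, and no gene of these panels was called lower.

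On the back-to-belly axis both sides of the neural tube were represented. Of 19 ventral genes measured 9 were higher, with a median log2 difference of 1.83. Averaged probe sets gave 5 higher and a median of 0.82, with Shh, Ntn1, Spon1 and Pax6 no longer called, and the low level at the 25th percentile a median of 3.48. Shh, the ventral morphogen, was at least 9.63-fold higher, at 68.0 on the ES array and 758 on the Sox1 array, and Foxa2, a factor of the floor plate and of endoderm, at least 8.51-fold higher, at 33.0 on the ES array and 670.3 on the Sox1 array. The floor plate genes Ntn1, or netrin, and Spon1, or spondin, were at 30.6 on the ES array and 1263 on the Sox1 array and at 11.7 on the ES array and 663 on the Sox1 array. Nkx2-2, a factor of the ventral-most neural progenitors, was at 23.3 on the ES array and 456 on the Sox1 array, and Nkx2-9 at 24.6 on the ES array and 434 on the Sox1 array. Dbx1, which marks progenitors of the middle of the cord, was at least 23.8-fold higher, at 47.5 on the ES array and 1871 on the Sox1 array. Olig2, the factor of motor neuron progenitors, was undetected, at 0.9 on the ES array and 78.2 on the Sox1 array, and Nkx6-1 was at 11.7 on the ES array and 279.7 on the Sox1 array.

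Among 21 dorsal genes 3 were higher, namely Zic1, Lhx2 and Pax3, and 12 were detected on the Sox1 array. With the low level at the 25th percentile 8 were higher. Pax3, a paired-box factor of the dorsal neural tube, was at least 11.1-fold higher, at 45.4 on the ES array and 875 on the Sox1 array. Pax7 was at 41.9 on the ES array and 179 on the Sox1 array, with another probe set at a log2 difference of 3.57. Olig3, of dorsal progenitors, was at 12.5 on the ES array and 291.5 on the Sox1 array, and Msx1 at 134 on the ES array and 324 on the Sox1 array. The roof plate factor Lmx1a was undetected, at 62.2 on the ES array and 32.3 on the Sox1 array.

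Among 19 genes of retinoic acid binding, reception and turnover 4 were higher and 1 lower, and the higher ones act in binding and breakdown. Beside Crabp2, its relative Crabp1 was 22.0-fold higher, at 1278.5 on the ES array and 28152.5 on the Sox1 array. Of the enzymes that degrade retinoic acid, Cyp26a1 was at least 5.85-fold higher, at 59.5 on the ES array and 461 on the Sox1 array. Cyp26b1, of the same family, was at least 7.37-fold higher, at 17.2 on the ES array and 580.3 on the Sox1 array. The call of Cyp26a1 was lost with the low level at the 60th percentile and with log2 of the signal plus the low level. Of the enzymes that make retinoic acid, Aldh1a2 and Aldh1a3 were not detected on the Sox1 array. Aldh1a2 was at 147 on the ES array and 91.7 on the Sox1 array, and Aldh1a3 at 44.5 on the ES array and 29.9 on the Sox1 array. Among its receptors Rarg was at 606 on the ES array and 239 on the Sox1 array and Rxra at 187 on the ES array and 414 on the Sox1 array, with another Rxra probe set at -0.35, while Rara and Rarb were undetected. The 1 lower member was Stra8.

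The promoter of Cyp26a1 is shown because this gene is the textbook direct target of retinoic acid receptors. It is printed from RefSeq on build GRCm38.p6, chr19:37697558-37697807, plus strand, as the 250 bases before the start of transcription, with a match to the DR5 retinoic acid response element in capitals.
Cyp26a1: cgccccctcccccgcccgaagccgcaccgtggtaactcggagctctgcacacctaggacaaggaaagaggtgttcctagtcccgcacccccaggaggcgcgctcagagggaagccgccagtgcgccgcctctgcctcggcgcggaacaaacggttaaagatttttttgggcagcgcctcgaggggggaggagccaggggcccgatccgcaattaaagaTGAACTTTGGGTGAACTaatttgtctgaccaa
The match reads on the reverse strand and ends 15 bases before the start. Both strands of all 32851 promoter windows of this length were searched for this element, a pair of receptor half-sites separated by 5 bases, and 29 windows, or 0.0883%, held it. Of the 3 higher genes of the retinoic acid list with a window, Cyp26a1 held it, and of 11 uncalled genes with a window Rarb held it. A match is a description of the letters and not evidence of binding.

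Of 313 metabolic genes measured, 281 of them detected on either array, 7 were higher and 25 lower on the Sox1 array. ES cells are known for high flux through glycolysis. Of 27 genes of glucose uptake and glycolysis 3 were lower and 0 higher, and the median was -0.76 on the log2 scale. Unshared probe sets gave 1 lower of 20 and a median of -0.33. Beside Pfkp, Aldoc, an aldolase of brain, was 7.34-fold lower, at 1694 on the ES array and 231 on the Sox1 array, and Ldhb, a lactate dehydrogenase subunit, 4.04-fold lower, at 11524 on the ES array and 2851 on the Sox1 array. The call of Ldhb was lost under quantile and reference-gene scaling and with log2 of the signal plus the low level. Pfkl, the liver-type phosphofructokinase, was at 2696 on the ES array and 1089 on the Sox1 array, and Pfkm, the muscle type, at 897.5 on the ES array and 496 on the Sox1 array. The hexokinase genes Hk1 and Hk2 were at 1551 on the ES array and 451 on the Sox1 array and at 6728 on the ES array and 2683 on the Sox1 array. Ldha was at 24594 on the ES array and 13307 on the Sox1 array and Pgk1 at 25940.2 on the ES array and 15642 on the Sox1 array, both less than 2-fold apart, though other Pgk1 probe sets reached -1.69. The glucose transporter gene Slc2a1 was bright and nearly level, at 13892 on the ES array and 15501 on the Sox1 array. No gene of this list reached 2-fold towards the Sox1 array, and 9 reached it towards the ES array.

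Of 33 genes of pyruvate entry and the citric acid cycle 3 were lower and 0 higher, with a median of -0.32. Pdk1, a kinase that shuts off pyruvate dehydrogenase, was 4.71-fold lower, at 9419 on the ES array and 1999 on the Sox1 array, and Pdk4, of the same family, at least 9.29-fold lower, at 732 on the ES array and 43.4 on the Sox1 array. Me1, the cytosolic malic enzyme, was 4.04-fold lower, at 1415 on the ES array and 350.2 on the Sox1 array, with a further probe set at -1.68. The call of Me1 was lost under the same 3 choices and with averaged probe sets. Pdk3 was at 1140.1 on the ES array and 942 on the Sox1 array. The cycle enzymes Cs, citrate synthase, at 6887 on the ES array and 10806.5 on the Sox1 array, and Mdh2, malate dehydrogenase, at 22395 on the ES array and 18242 on the Sox1 array, were less than 2-fold apart. Other Cs probe sets ranged from -0.77 to 0.68. For 42 genes of the respiratory chain and ATP synthase, 40 of them detected on either array, the median was -0.08. By the 4-fold rule 2 were lower, a share near the 5.21% of all detected genes. Both are isoforms of restricted tissues, Cox7a1 of muscle, at least 11.5-fold lower at 905 on the ES array and 49.0 on the Sox1 array, and Cyct, the cytochrome c of testis, at least 7.75-fold lower at 610.3 on the ES array and 39.0 on the Sox1 array. The general cytochrome c gene Cycs was at 21770.5 on the ES array and 26989.6 on the Sox1 array, and Cox5a at 28734 on the ES array and 25153 on the Sox1 array.

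Fatty acid oxidation feeds the citric acid cycle with acetyl groups. Of 24 genes 3 were lower and 0 higher, with a median of -0.52. Cpt1a, which commits long-chain fatty acids to mitochondria, was at 1800 on the ES array and 146 on the Sox1 array. Acadm, the medium-chain dehydrogenase, was 7.25-fold lower, at 7711 on the ES array and 1063 on the Sox1 array, and Acaa2, the thiolase, 5.02-fold lower, at 4053 on the ES array and 807 on the Sox1 array. Hadh was at 14165 on the ES array and 9858 on the Sox1 array and Hsd17b4, of peroxisomes, at 4037 on the ES array and 4334 on the Sox1 array. Cpt1c, the brain form of Cpt1a, was at 493 on the ES array and 899.6 on the Sox1 array.

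Lipid synthesis and binding gave few calls, and the 2 in fatty acid binding opposed each other. Fabp3, the heart fatty acid binding protein, was 9.86-fold lower, at 11930.5 on the ES array and 1209.9 on the Sox1 array, while Fabp7 was higher, and Fabp5 was bright on both, at 12129 on the ES array and 32382 on the Sox1 array. These were the calls among 26 genes of fatty acid synthesis and binding. Averaged probe sets left 1 higher and 0 lower, without Fabp3. Unshared probe sets gave 2 higher, and the low level at the 25th percentile 2 lower. The desaturase genes Scd2, at 10162 on the ES array and 19946 on the Sox1 array, and Fads1, at 961 on the ES array and 2569.6 on the Sox1 array, and the elongase gene Elovl2, at 922 on the ES array and 2809 on the Sox1 array, did not reach 4-fold. Of 26 genes of cholesterol synthesis and uptake 0 were called in either direction, with a median of 0.05. That median was -0.06 with averaged probe sets. Hmgcs1, an early enzyme of that pathway, was at 13933.5 on the ES array and 17404 on the Sox1 array, and Idi1 at 7109.7 on the ES array and 5626 on the Sox1 array.

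Mouse ES cells depend on threonine and on one-carbon units. Of 26 genes listed for threonine, glycine, serine and one-carbon metabolism, 20 were measured. By the 4-fold rule 4 were lower and 0 higher, with a median of -0.72. The use of threonine itself was not measured. With the low level at the 60th percentile 1 was lower. Cth, which makes cysteine from cystathionine, was 7.87-fold lower, at 5875 on the ES array and 746 on the Sox1 array. Bhmt, of homocysteine methylation, was at least 6.25-fold lower, at 492.5 on the ES array and 28.5 on the Sox1 array, Gnmt, which consumes methyl groups, at least 5.77-fold lower, at 454 on the ES array and 2.8 on the Sox1 array, and Aldh1l1, a folate enzyme, at least 4.89-fold lower, at 385 on the ES array and 54.2 on the Sox1 array. The glycine cleavage genes Gldc, at 3482 on the ES array and 2359 on the Sox1 array, and Gcsh, at 14395.5 on the ES array and 12354 on the Sox1 array, and the serine synthesis genes Phgdh, at 4219.8 on the ES array and 5667 on the Sox1 array, and Psat1, at 7605 on the ES array and 7219 on the Sox1 array, were less than 2-fold apart. Among 28 genes of nucleotide metabolism Upp1, uridine phosphorylase, was 17.0-fold lower, at 6552 on the ES array and 384 on the Sox1 array, and Ada, adenosine deaminase, 7.58-fold lower, at 1309 on the ES array and 173 on the Sox1 array. Dpysl2, listed with the pyrimidine enzymes for its sequence, is a protein of axon growth. It was 13.1-fold higher, at 1231 on the ES array and 16084.5 on the Sox1 array. Averaged probe sets gave Dpysl2 a log2 difference of 1.51, which is not a call, and left 0 higher in this list. Rrm2, a subunit of ribonucleotide reductase made in dividing cells, was at 21937 on the ES array and 23537 on the Sox1 array.

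Of 34 redox genes, 33 of them detected on either array, 2 were higher and 3 lower. The share of higher genes is near the 6.2% of all detected genes. Averaged or unshared probe sets left 1 higher. Txnip, an inhibitor of thioredoxin and of glucose uptake, was 10.2-fold lower, at 6044 on the ES array and 590.5 on the Sox1 array. Srxn1, sulfiredoxin, was 6.63-fold lower, at 1210.5 on the ES array and 183 on the Sox1 array, with another probe set at -1.09, and Gss, glutathione synthetase, 4.86-fold lower, at 1300.3 on the ES array and 267 on the Sox1 array. Mgst1, a microsomal glutathione transferase, was 6.30-fold higher, at 492 on the ES array and 3099.8 on the Sox1 array, and Gpx8, an endoplasmic reticulum peroxidase, 6.84-fold higher, at 179 on the ES array and 1223 on the Sox1 array. Of 28 amino acid transporters, 23 of them detected on either array, 2 were lower. Slc1a1, a glutamate carrier, was at 548 on the ES array and 66.4 on the Sox1 array, with a further probe set at -1.60. Slc7a7 was at 745 on the ES array and 146 on the Sox1 array. Neither was called with averaged probe sets, and the low level at the 25th percentile gave 4 lower. Slc38a2 was level, at 13740.2 on the ES array and 13825 on the Sox1 array.

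Enzymes that build surface glycans differed by type. St8sia2 and St8sia4, which add polysialic acid to the neural cell adhesion molecule, were at least 15.8-fold and at least 11.8-fold higher, at 29.7 on the ES array and 1243 on the Sox1 array and at 69.2 on the ES array and 933 on the Sox1 array. B3gat1, which makes the HNK-1 epitope of neural tissue, was at least 4.62-fold higher, at 30.5 on the ES array and 364 on the Sox1 array. The carrier of polysialic acid, Ncam1, was at 482 on the ES array and 1474 on the Sox1 array. Gcnt2, the enzyme of the I blood group branch, was 7.84-fold lower, at 1832 on the ES array and 234 on the Sox1 array, with another probe set at -1.81, and B4galt6, a lactosylceramide synthase, 4.25-fold lower, at 9261.5 on the ES array and 2181 on the Sox1 array. Of 25 genes of this list 3 were higher and 2 lower. Only 1 call in each direction was left with averaged probe sets.

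**Figure D4:**
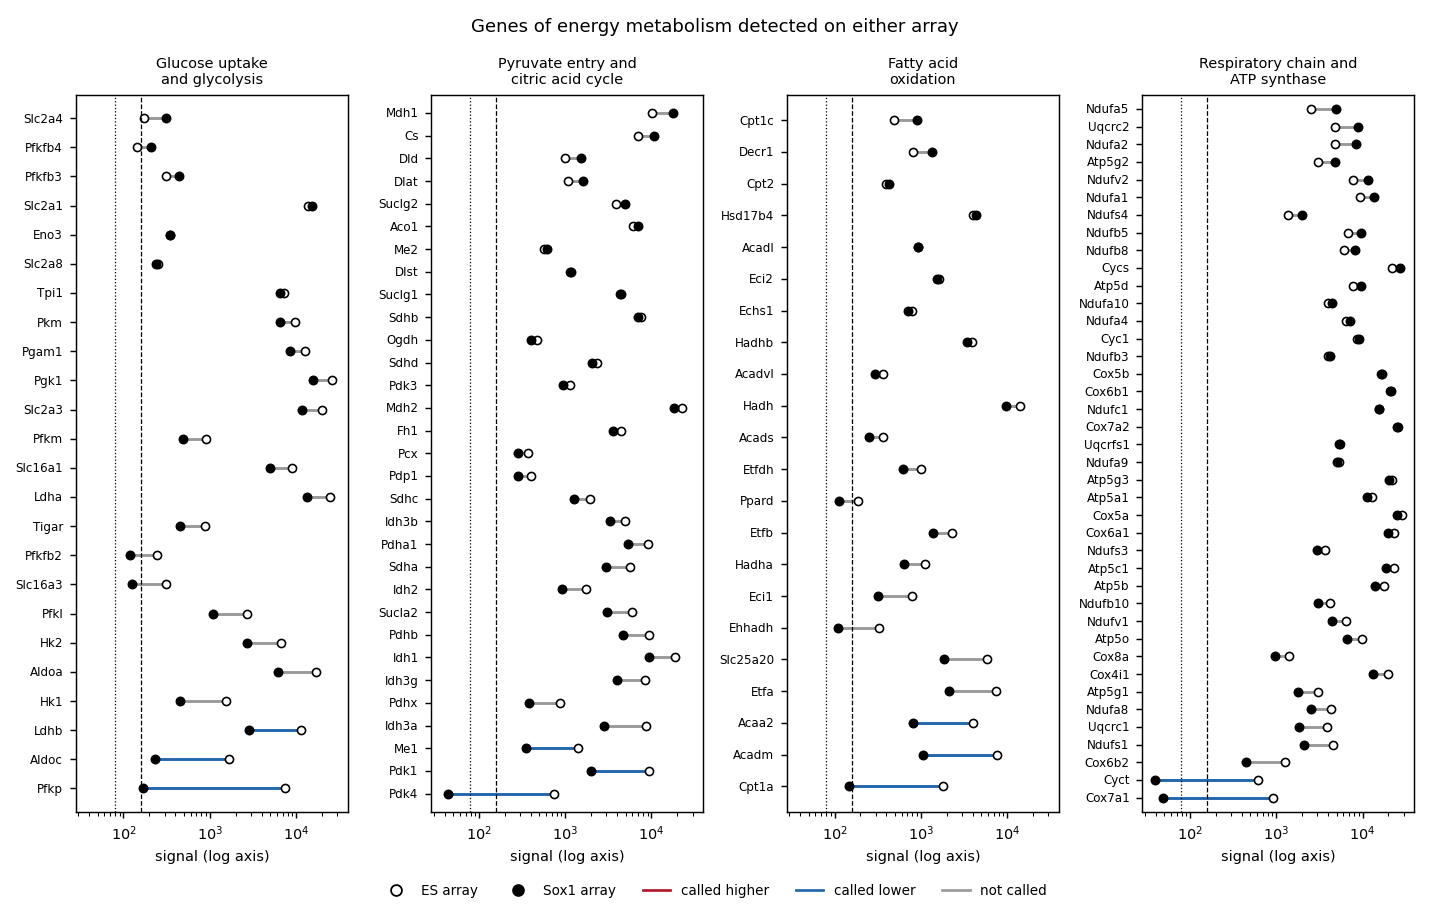
Signals (log axis) of genes of energy metabolism detected on either array, with the ES array as open circles and the Sox1 array as filled circles joined by a line, blue where called lower and grey where not called. Respiratory chain genes lie close together on the 2 arrays apart from Cox7a1 and Cyct, while Pfkp, Pdk4, Pdk1 and Cpt1a are far apart.

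Of 219 adhesion and matrix genes measured, 135 of them detected on either array, 27 were higher and 15 lower. Differences were opposite within the cadherin family. Cdh1, or E-cadherin, was 10.2-fold lower, at 9123 on the ES array and 895 on the Sox1 array, where Cdh2 was at least 118-fold higher. Cdh11 was at least 36.5-fold higher, at 18.4 on the ES array and 2874 on the Sox1 array, Cdh6, of rhombomere borders, at least 7.32-fold higher, at 13 on the ES array and 576 on the Sox1 array, and Cdh10 at least 4.83-fold higher, at 54.5 on the ES array and 380.1 on the Sox1 array. Cdh6 was not called with the probe set brightest over these 2 arrays, at a log2 difference of 0.47, or with averaged probe sets, at 1.67. Among catenins the neural delta-catenin gene Ctnnd2 was at 90.1 on the ES array and 1154 on the Sox1 array, and Jup, plakoglobin of desmosomes, at 572 on the ES array and 86.1 on the Sox1 array. The shared catenins Ctnnb1, at 21630.2 on the ES array and 24397 on the Sox1 array, and Ctnna1, at 11649 on the ES array and 10197 on the Sox1 array, were nearly level, though other Ctnnb1 probe sets ranged from -1.99 to -0.22. Of 24 genes of this list 5 were higher and 2 lower. With averaged probe sets 3 were higher.

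Protocadherins and atypical cadherins were called in 1 direction, with 8 of 27 higher and 0 lower, and a median of 0.87. Averaged probe sets gave 5 higher and a median of 0.27, and the low level at the 60th percentile also 5. Beside Pcdh8, Pcdh18 was at least 16.7-fold higher, at 74.2 on the ES array and 1318 on the Sox1 array, Fat3 at least 16.2-fold higher, at 33.8 on the ES array and 1278 on the Sox1 array, and Fat4 at least 10.1-fold higher, at 32.2 on the ES array and 792 on the Sox1 array. Celsr2, of planar polarity, was at 122 on the ES array and 1438 on the Sox1 array. Further probe sets fell short of 4-fold for Pcdh18, at 1.61, and Celsr2, at 1.92. Fat1 was at 3732 on the ES array and 6806 on the Sox1 array, less than 2-fold apart.

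Genes of epithelial junctions were lower or not called, with 9 of 39 lower and 0 higher and a median of -1.02. With the low level at the 60th percentile 5 were lower and the median was -0.24, and averaged probe sets gave -0.50. Dsg2, a desmoglein, was 12.8-fold lower, at 3610.1 on the ES array and 281.5 on the Sox1 array, and Epcam, the epithelial adhesion molecule, 10.6-fold lower, at 4561 on the ES array and 428.5 on the Sox1 array. Spint2, an inhibitor of surface proteases, was 6.18-fold lower, at 8131 on the ES array and 1316 on the Sox1 array, and its target St14, matriptase, at least 6.15-fold lower, at 484 on the ES array and 55.4 on the Sox1 array. Dsc2, a desmocollin, was at 676 on the ES array and 115 on the Sox1 array. Other probe sets were at -1.45 for Dsg2 and -1.80 for Epcam. Tight and gap junction genes shared with neuroepithelium were level, with Tjp1 at 5246 on the ES array and 5013 on the Sox1 array and Gja1 at 14463 on the ES array and 20118 on the Sox1 array, and so was the keratin gene Krt8, at 536.5 on the ES array and 501 on the Sox1 array.

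In the immunoglobulin family Icam1 was the 1 lower gene of 43, and 3 were higher. Averaged probe sets left 1 higher, and the low level at the 25th percentile gave 7 higher and 3 lower. Nrcam, of axon contacts, was at 97.2 on the ES array and 939.9 on the Sox1 array, Sdk2 at 124 on the ES array and 969 on the Sox1 array and Kirrel at 141 on the ES array and 679 on the Sox1 array. A further Nrcam probe set gave 1.17. L1cam, a marker of axons, was level, at 233 on the ES array and 227 on the Sox1 array. Among 29 integrin genes Itgb8, a receptor that releases active transforming growth factor beta and is made by neural progenitors, was at least 63.6-fold higher, at 13.6 on the ES array and 5013 on the Sox1 array. Ilk, the integrin-linked kinase, was 7.30-fold higher, at 194 on the ES array and 1415 on the Sox1 array. The integrin list had 2 higher and 0 lower, and with the low level at the 25th percentile 2 higher and 3 lower. The main beta subunit gene Itgb1 was at 487 on the ES array and 383 on the Sox1 array, and Itga6, a laminin receptor subunit, at 8792 on the ES array and 3014.5 on the Sox1 array.

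Of 26 laminin and basement membrane genes 1 was higher and 2 lower. Nid2 and Nid1, the nidogens that link laminin to collagen, were 8.89-fold and 5.82-fold lower, at 2987 on the ES array and 336 on the Sox1 array and at 3195 on the ES array and 549 on the Sox1 array. Col4a5 was at least 25-fold higher, at 49.9 on the ES array and 1966 on the Sox1 array, with another probe set at 1.14, and Fn1, fibronectin, was at 8059 on the ES array and 2675 on the Sox1 array. Of 31 proteoglycan and tenascin genes 8 were higher and 1 lower. Averaged probe sets left 5 and 0, as did log2 of the signal plus the low level. The glypicans, which hold growth factors at the cell surface, gave Gpc6 at least 19.2-fold higher, at 61.3 on the ES array and 1511 on the Sox1 array, Gpc4 9.61-fold higher, at 263 on the ES array and 2527 on the Sox1 array, and Gpc1 at least 8.25-fold higher, at 10 on the ES array and 650.1 on the Sox1 array. The chondroitin sulfate proteoglycan Vcan was at 104 on the ES array and 1616 on the Sox1 array, and Ptprz1, a receptor of radial glia that binds pleiotrophin, 5.58-fold higher at 215 on the ES array and 1199.8 on the Sox1 array. Lowest values among other probe sets were 1.03 for Gpc6, 1.75 for Vcan and 1.66 for Ptprz1. Sdc4, a syndecan, was the 1 lower, 4.20-fold, at 3492.5 on the ES array and 832 on the Sox1 array, with another probe set at -0.91.

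Of 296 chromatin, imprinted and germline genes measured, 257 of them detected on either array, 29 were higher and 23 lower. Of 21 genes of DNA methylation and demethylation 6 were lower and 0 higher, with a median of -0.93. The median was -0.40 with averaged probe sets. Tet1 and Tet2, which oxidise methylated cytosine, were 5.37-fold and 8.87-fold lower, at 4817 on the ES array and 897 on the Sox1 array and at 4189.7 on the ES array and 472 on the Sox1 array. Zfp57, which protects imprints, was at 875 on the ES array and 125.5 on the Sox1 array. Gadd45b was at 812 on the ES array and 116 on the Sox1 array and Apobec1 at least 6.62-fold lower, at 522 on the ES array and 14.7 on the Sox1 array. A further Tet1 probe set gave -1.59. The methyltransferases themselves differed less, with Dnmt1 at 6639.6 on the ES array and 6698 on the Sox1 array, Dnmt3b at 6362 on the ES array and 5123 on the Sox1 array and Dnmt3a at 2143 on the ES array and 1124 on the Sox1 array. Uhrf1, which guides Dnmt1, was at 2497 on the ES array and 3684 on the Sox1 array. Dnmt3b was at 363 on the granule array.

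Of 37 Polycomb genes, which keep developmental genes silent, 34 were detected on either array. By the 4-fold rule 3 were higher and 1 lower, with a median of 0.05. The sign of that median turned with unshared probe sets, at -0.12, and with the probe set of highest linear mean, at -0.08. Mtf2, which brings the second complex to DNA, was 4.04-fold lower, at 13359.6 on the ES array and 3308.5 on the Sox1 array, with a further probe set at -1.47. This call was lost under quantile and reference-gene scaling, with averaged probe sets and with log2 of the signal plus the low level. The catalytic subunit gene Ezh2 was at 6281 on the ES array and 7442 on the Sox1 array, and its partners Suz12 and Eed at 6240.2 on the ES array and 2168 on the Sox1 array and at 11124 on the ES array and 4147 on the Sox1 array. In the first complex Phc2 was 12.5-fold higher, at 279 on the ES array and 3505 on the Sox1 array, against Phc1 at 11252 on the ES array and 2955 on the Sox1 array. Bmi1, which neural stem cells need to renew, was 6.81-fold higher, at 989.8 on the ES array and 6739 on the Sox1 array, and Yaf2 4.23-fold higher, at 1542 on the ES array and 6530.1 on the Sox1 array. Cbx2 was at 404 on the ES array and 1603 on the Sox1 array and Cbx7, the main chromobox gene of ES cells, at 1042 on the ES array and 329.9 on the Sox1 array. Rbbp4 and Rbbp7, histone binding proteins shared by many complexes, were level, at 23381 on the ES array and 25060.5 on the Sox1 array and at 18620.1 on the ES array and 17638 on the Sox1 array.

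Histone methyltransferases and demethylases gave 5 higher and 3 lower of 50, 48 of them detected on either array. Averaged probe sets left 2 higher, the low level at the 60th percentile 1 lower and log2 of the signal plus the low level 0 lower. Setd7 was 9.04-fold higher, at 257 on the ES array and 2326 on the Sox1 array, and Prmt8, an arginine methyltransferase of brain, 6.88-fold higher, at 220.1 on the ES array and 1514 on the Sox1 array. Nsd2 was 6.14-fold higher, at 172 on the ES array and 1056.5 on the Sox1 array, though another probe set gave 1.00. Prdm16, of radial glia, was 4.36-fold higher, at 184 on the ES array and 802 on the Sox1 array, and Prdm8 at least 4.73-fold higher, at 7.5 on the ES array and 372 on the Sox1 array. Prdm1, a regulator of primordial germ cells, was at least 5.12-fold lower, at 403 on the ES array and 63.3 on the Sox1 array. Kdm4c was 4.27-fold lower, at 1286 on the ES array and 301 on the Sox1 array, and Smyd3 was at 488 on the ES array and 101 on the Sox1 array. Among 38 acetyltransferase and deacetylase genes Kat2b, Kat6b and Hdac6 were lower, at 5008.5 on the ES array and 919.7 on the Sox1 array, at 3422 on the ES array and 626 on the Sox1 array and at 1432 on the ES array and 320.3 on the Sox1 array, with another Kat2b probe set at -1.28. Of these 3 only Hdac6 was still lower with averaged probe sets. Hdac1 and Hdac2 were nearly level, at 5852 on the ES array and 5414 on the Sox1 array and at 11551 on the ES array and 12068 on the Sox1 array. Rest, the repressor of neuronal genes, was at 4815 on the ES array and 1546 on the Sox1 array.

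Of 58 remodeller genes, 51 of them detected on either array, 2 were higher and 0 lower. Among all genes 3.59% of those measured and 6.2% of those detected were higher. Both remodeller calls are of BAF complex genes, but a count no larger than these shares is not read as a result about that complex. Smarca2 lost its call with averaged or unshared probe sets, with the low level at the 60th percentile and with log2 of the signal plus the low level, and the probe set of highest linear mean gave 4 higher. Smarca2, the alternative ATPase, was at least 4.97-fold higher, at 52.7 on the ES array and 391.5 on the Sox1 array, and Smarce1 5.94-fold higher, at 714 on the ES array and 4239 on the Sox1 array, with another probe set at 1.36. Smarca4, the ATPase of the ES cell complex, was at 2295 on the ES array and 2934 on the Sox1 array and Smarcc1 at 5442 on the ES array and 6532 on the Sox1 array. Smarcc2, which enters the neural form of the complex, was at 166 on the ES array and 523 on the Sox1 array. The neuronal subunit gene Actl6b was undetected, at 41.9 on the ES array and 58.1 on the Sox1 array, and its progenitor counterpart Actl6a was at 8034 on the ES array and 8930.1 on the Sox1 array. Chd7, a remodeller of neural crest and neural progenitors, was at 729.5 on the ES array and 2524 on the Sox1 array. Of the 58 genes 28 belong to the BAF complex, with a median log2 difference of 0.61, and 30 to other complexes, with a median of -0.18.

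Histone variants and high mobility group proteins were called in 1 direction, with 7 of 29 higher and 0 lower. Unshared probe sets gave 3 of 24, with Macroh2a1 and Macroh2a2 not measured and Macroh2a3 at 0.00. The macroH2A variants, which mark silent chromatin, were all 3 higher. Macroh2a1 was 12.8-fold higher, at 737 on the ES array and 9460 on the Sox1 array, Macroh2a2 5.72-fold higher, at 400.5 on the ES array and 2290.3 on the Sox1 array, and Macroh2a3 6.63-fold higher, at 159 on the ES array and 1057 on the Sox1 array. The probe sets of Macroh2a2 and Macroh2a3 are of a type that can bind related transcripts. Hmga2, a let-7 target that keeps young neural stem cells dividing, was 8.30-fold higher, at 1411 on the ES array and 11709.6 on the Sox1 array, and undetected on the granule array, at 38.9. Hmgb3 was 12.7-fold higher, at 664 on the ES array and 8413 on the Sox1 array, and remained bright on the granule array, at 9029.5. The core variants H2az1, at 31986 on the ES array and 34382 on the Sox1 array, and H2ax, at 6232 on the ES array and 5726 on the Sox1 array, were level.

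Imprinted genes are read from a single parental copy. Of 32 measured 12 were higher and 0 lower, and the median was 1.70 on the log2 scale. Unshared probe sets gave 6 of 30 higher and a median of 0.41, with Grb10 and Nnat not measured and Dlk1 and Plagl1 at 0.00. Averaged probe sets gave 8 and 0.85. Grb10, a growth inhibitor read from the maternal copy, was 17.8-fold higher, at 740.5 on the ES array and 13151 on the Sox1 array. Cdkn1c, a maternally read inhibitor of the cell cycle, was at 114 on the ES array and 2184 on the Sox1 array. Paternally read genes included Peg12, at least 20.2-fold higher at 30.6 on the ES array and 1590.4 on the Sox1 array, Mest, 16.0-fold higher at 1349.6 on the ES array and 21649 on the Sox1 array, and Nnat, or neuronatin, 16.7-fold higher at 248 on the ES array and 4140 on the Sox1 array. Dlk1, a membrane ligand of the Notch type, was at least 10.2-fold higher, at 67.0 on the ES array and 803 on the Sox1 array. Ndn, necdin, was at 950.3 on the ES array and 13855 on the Sox1 array and Plagl1, a zinc finger gene placed at the centre of an imprinted network, at 1533 on the ES array and 18385 on the Sox1 array. Higher calls thus came from both parental classes. Not every member took part, with Igf2r at 623.5 on the ES array and 499 on the Sox1 array, Impact at 3664 on the ES array and 3976.5 on the Sox1 array and Phlda2 at 335 on the ES array and 115 on the Sox1 array, and the neuronal Snrpn undetected, at 23.4 on the ES array and 38.6 on the Sox1 array. The arrays do not tell the parental copies apart.

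Many germline genes are silenced in body cells by DNA methylation. Of 33 measured 17 were detected on the ES array and 3 on the Sox1 array, and 10 were lower with 0 higher. With the low level at the 25th percentile 18 were lower. Beside Stra8 and Ooep, Tex19.1, a transposon silencing gene, was at 1649 on the ES array and 128 on the Sox1 array. Tcl1, listed here and among pluripotency genes, was at 1118 on the ES array and 96.8 on the Sox1 array. Mael, of the piRNA pathway, was at least 10.2-fold lower, at 805 on the ES array and 46.1 on the Sox1 array, and Dazl, an RNA-binding protein of germ cells, at 681 on the ES array and 50.6 on the Sox1 array. The meiotic gene Sycp3 was at 2062 on the ES array and 262 on the Sox1 array, and Hormad1, also of meiosis, at 529.9 on the ES array and 9.6 on the Sox1 array. Syce2, of the synaptonemal complex, was not called, at 4248 on the ES array and 3239.5 on the Sox1 array.

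The promoters of 3 of these genes are shown because they share a motif described for germline genes under methylation control. Each is printed from RefSeq on build GRCm38.p6 as the 250 bases before the start of transcription, in the direction of the gene, with every CACGTG in capitals. They are Mael at chr1:166238745-166238994, minus strand, Sycp3 at chr10:88459337-88459586, plus strand, and Hormad1 at chr3:95559427-95559676, plus strand.
Mael: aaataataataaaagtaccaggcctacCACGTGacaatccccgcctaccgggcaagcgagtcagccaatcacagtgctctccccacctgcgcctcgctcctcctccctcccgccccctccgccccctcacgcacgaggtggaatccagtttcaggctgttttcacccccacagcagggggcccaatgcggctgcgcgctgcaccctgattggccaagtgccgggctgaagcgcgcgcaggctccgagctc
Sycp3: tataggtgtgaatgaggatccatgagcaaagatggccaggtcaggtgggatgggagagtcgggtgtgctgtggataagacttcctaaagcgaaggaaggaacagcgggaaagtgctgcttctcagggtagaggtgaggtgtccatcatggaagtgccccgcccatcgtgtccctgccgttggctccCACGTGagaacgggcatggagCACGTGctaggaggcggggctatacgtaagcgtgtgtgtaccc
Hormad1: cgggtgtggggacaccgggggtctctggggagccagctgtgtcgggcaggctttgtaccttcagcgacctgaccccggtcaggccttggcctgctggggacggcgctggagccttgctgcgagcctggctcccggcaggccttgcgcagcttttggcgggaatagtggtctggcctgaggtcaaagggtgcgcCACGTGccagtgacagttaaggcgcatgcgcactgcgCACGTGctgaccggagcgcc
CACGTG reads the same on both strands. It was in 3 of the 10 lower germline genes with a window and in 8 of 18 uncalled ones, among them Ddx4 and Slc25a31, against 1978 of 32851 windows of this length, or 6.02%. Within the list the motif was thus not limited to the genes that differed. Sycp3 and Hormad1 carried it 2 times and Mael 1 time, and in Mael it lay 217 bases before the start. These genes were chosen for display after the search.

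**Figure D5:**
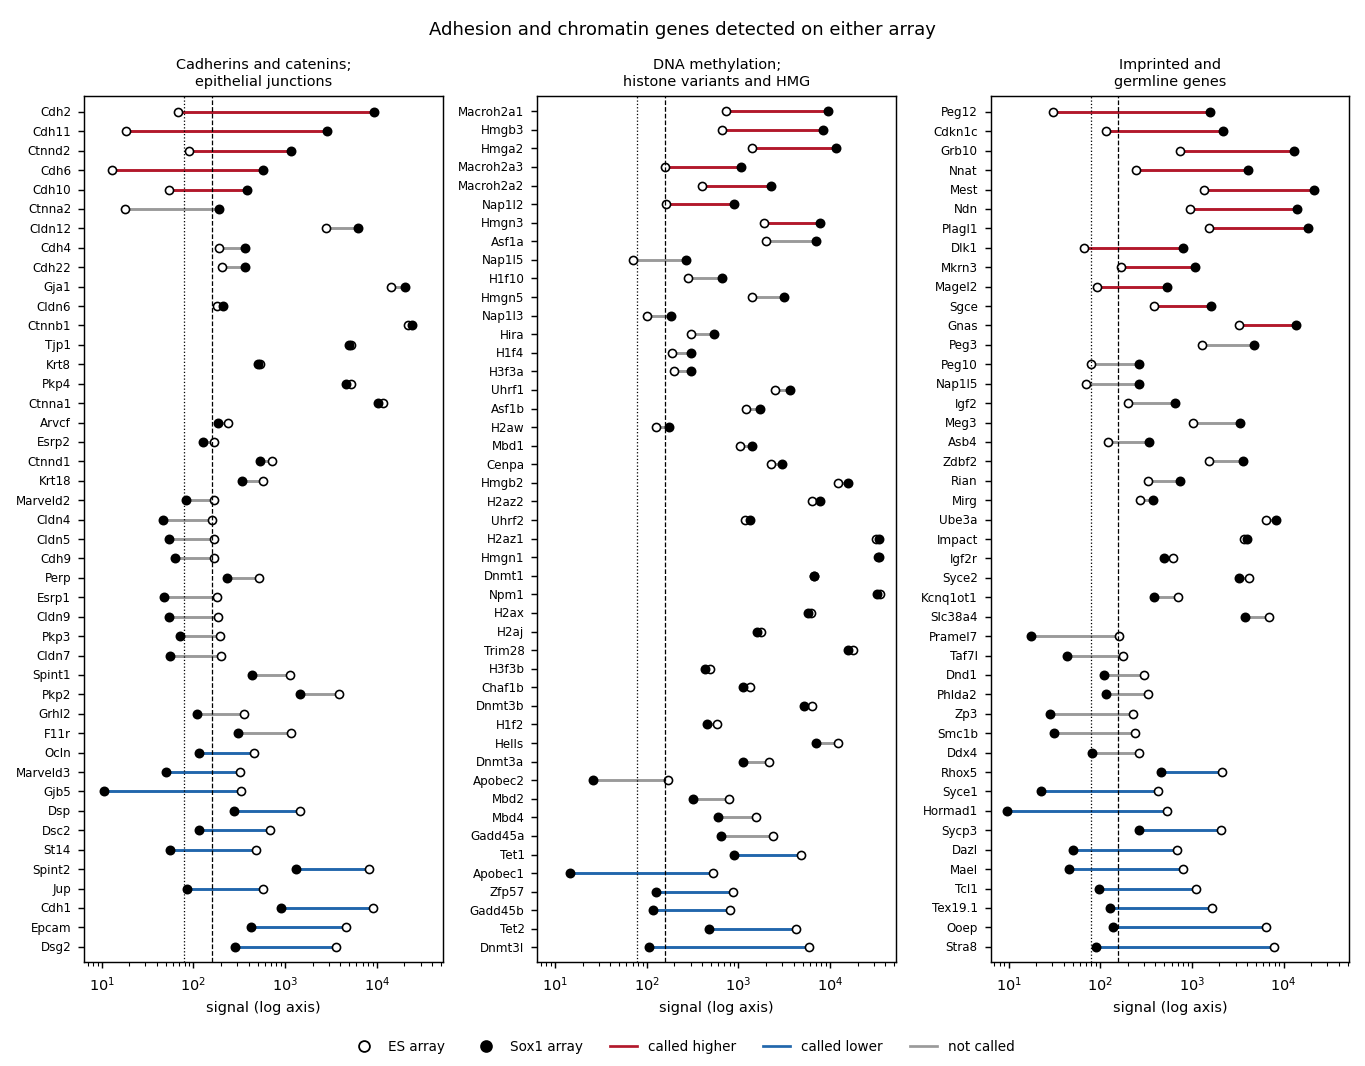
Signals (log axis) of adhesion and chromatin genes detected on either array, with the ES array as open circles and the Sox1 array as filled circles joined by a line, red where called higher, blue where called lower and grey where not called. Cdh1 and Cdh2 differ in opposite directions, the 3 macroH2A genes are higher, and calls among germline genes are lower only while calls among imprinted genes are higher only.

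Receptors and their ligands gave 72 higher and 18 lower of 430 measured, 247 of them detected on either array. Among receptor tyrosine kinases 6 of 42 were higher and 3 lower. None of the 6 stayed higher with averaged probe sets, where 1 was lower, and the low level at the 60th percentile also left 1 lower. Receptors for fibroblast growth factors were among the 6 higher genes. Fgfr3 was at least 16.8-fold higher, at 76.2 on the ES array and 1325 on the Sox1 array. Fgfr2 was 4.56-fold higher, at 277 on the ES array and 1264 on the Sox1 array. Its log2 difference was -0.09 with averaged and 0.00 with unshared probe sets. Fgfr1, of the same family, was not called, at 428 on the ES array and 1498 on the Sox1 array. Igf1r was 5.45-fold higher, at 272 on the ES array and 1483 on the Sox1 array, with a further probe set at 1.55. Ddr1, a collagen receptor, was 5.28-fold higher, at 2281 on the ES array and 12044.5 on the Sox1 array, with a further probe set at 0.71. Unshared probe sets gave Ddr1 a log2 difference of -0.23, of the opposite sign. Ror1, a receptor for Wnt5a, was at 18.2 on the ES array and 339 on the Sox1 array. Erbb3, a receptor for neuregulins, was at 1034 on the ES array and 147 on the Sox1 array, Tek, an endothelial receptor, at least 5.96-fold lower at 469.7 on the ES array and 11.1 on the Sox1 array, and Flt4, of lymph vessels, at 368 on the ES array and 85.9 on the Sox1 array. Kit was at 1311 on the ES array and 411 on the Sox1 array.

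Eph receptors and ephrins, which sort cells at borders, gave 7 higher of 21 and 0 lower. Of these 4 were left with averaged probe sets. Efna5 was at 89.8 on the ES array and 2075 on the Sox1 array, Efnb2 9.77-fold higher, at 734 on the ES array and 7178.5 on the Sox1 array, and Ephb1 at 91.4 on the ES array and 934 on the Sox1 array. Efnb3 was at least 7.28-fold higher, at 27.3 on the ES array and 573.5 on the Sox1 array. Epha4, a receptor of rhombomeres, was bright on both and nearly level, at 3078 on the ES array and 3199 on the Sox1 array, while Epha2, the receptor most used by ES cells, was at 793 on the ES array and 212 on the Sox1 array.

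Other guidance genes gave 12 higher and 1 lower of 46, with a median of 0.94. Averaged probe sets gave 4 higher and a median of 0.04, and log2 of the signal plus the low level gave 7 higher. Dcc, the netrin receptor, was at least 17.8-fold higher, at 8.2 on the ES array and 1401.5 on the Sox1 array, though another probe set gave 0.43, and its ligand Ntn1 was at least 16.0-fold higher. Nrp1, a receptor for semaphorins, was at least 15.1-fold higher, at 67.3 on the ES array and 1188.5 on the Sox1 array, with a further probe set at 1.47. Slit2, a repellent of the midline, was at 137 on the ES array and 1961 on the Sox1 array, and its receptor Robo1 at 1166 on the ES array and 3554 on the Sox1 array, with another Robo1 probe set at -0.95. Sema6d was at 80.3 on the ES array and 918 on the Sox1 array and Sema4a, the 1 lower, at 822 on the ES array and 113 on the Sox1 array, with another probe set at -1.94. Dcc was brighter still on the granule array, at 7475, and so was Sema6d, at 4129.

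Notch signalling holds neural progenitors back from becoming neurons. Of 27 genes 9 were higher and 0 lower. Their median of 0.80 became 0.07 with averaged probe sets, and Notch3 lost its call under quantile scaling and with log2 of the signal plus the low level. The ligands Dll1 and Jag1 were 12.8-fold and 13.2-fold higher, at 164 on the ES array and 2109 on the Sox1 array and at 354 on the ES array and 4664.5 on the Sox1 array. The receptor gene Notch3 was at 684.5 on the ES array and 2742 on the Sox1 array, while Notch1 was at 547 on the ES array and 953 on the Sox1 array and Notch2 at 1084 on the ES array and 3227 on the Sox1 array. Among targets Hes5 was at least 7.17-fold higher, at 68.9 on the ES array and 565 on the Sox1 array, and another probe set gave a log2 difference of 5.98. Nrarp was 9.13-fold higher, at 418 on the ES array and 3818 on the Sox1 array, and Hes1 at 182 on the ES array and 510.2 on the Sox1 array. Rbpj, the DNA-binding partner of Notch, was at 8903 on the ES array and 2884 on the Sox1 array. Ligand, receptor and target were each represented among the higher genes.

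Among 49 Wnt genes 10 were higher and 2 lower, and both directions held receptors. The higher calls numbered 4 with averaged probe sets. Fzd3, needed for axon tracts, was at 152 on the ES array and 4349 on the Sox1 array, with the lowest of its other probe sets at 1.01, Fzd2 15.3-fold higher, at 314 on the ES array and 4799 on the Sox1 array, and Fzd1 at least 9.84-fold higher, at 39.1 on the ES array and 775 on the Sox1 array. Fzd5 was 15.7-fold lower, at 3271 on the ES array and 208 on the Sox1 array, with another probe set at -1.76, and Fzd7 at 2661 on the ES array and 5502 on the Sox1 array. Secreted antagonists were bright, Sfrp2 12.9-fold higher at 1154 on the ES array and 14894 on the Sox1 array, and Frzb at least 10.2-fold higher at 33.7 on the ES array and 803 on the Sox1 array. Sfrp4 was lower, at 811 on the ES array and 157 on the Sox1 array. The ligands Wnt1, Wnt3, Wnt5a, Wnt7a and Wnt8b were undetected on both arrays. Axin2, a common target, was at 116 on the ES array and 399 on the Sox1 array, and Lef1, a nuclear effector, at 212 on the ES array and 1191 on the Sox1 array.

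The transforming growth factor beta family gave 6 higher and 5 lower of 43. The lower calls numbered 3 with averaged probe sets. Of the lower genes Tdgf1, Nodal, Lefty2 and Gdf3 belong to the Nodal branch, with Nodal 6.21-fold lower, at 2911.5 on the ES array and 469 on the Sox1 array, and its inhibitor Lefty2 11.3-fold lower, at 2487 on the ES array and 221 on the Sox1 array. Inhbb, an activin subunit, was at least 5.55-fold lower, at 437 on the ES array and 3.8 on the Sox1 array, and Gdf3 was at 572 on the ES array and 132 on the Sox1 array, with another probe set at -0.79. Inhbb was not called with its probe set brightest over the ES and Sox1 arrays, at a log2 difference of 0.00. Lefty1, by contrast, was at 1261 on the ES array and 884 on the Sox1 array. Inhibitors of differentiation, targets of bone morphogenetic proteins, were among the higher, with Id2 21.3-fold, at 621 on the ES array and 13193 on the Sox1 array, Id3 at least 9.83-fold, at 30.8 on the ES array and 774 on the Sox1 array, and Id4 at 610.4 on the ES array and 4398.5 on the Sox1 array. Id1 was at 247 on the ES array and 359.8 on the Sox1 array, and the ligand Bmp4 at 310.5 on the ES array and 42.4 on the Sox1 array. Tgfbr1 was 4.73-fold higher, at 1695 on the ES array and 8019.7 on the Sox1 array.

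Hedgehog components were higher or not called, with 5 of 17 higher and 0 lower and a median of 1.09. With averaged probe sets 2 were higher, without Smo, Boc and Shh. Smo, the signalling receptor, was 8.51-fold higher, at 414 on the ES array and 3527 on the Sox1 array. The co-receptor genes Gas1 and Boc were 22.4-fold and 6.82-fold higher, at 318 on the ES array and 7143 on the Sox1 array and at 211 on the ES array and 1439.8 on the Sox1 array, with another Boc probe set at 1.83, and Cdon was level, at 918.5 on the ES array and 921 on the Sox1 array. Gli3, the main repressor of the pathway, was 10.4-fold higher, at 421 on the ES array and 4395 on the Sox1 array. Of the targets that report signalling, Ptch1 was at 3797 on the ES array and 12045 on the Sox1 array, while Gli1 and Hhip were below detection, at 44.1 on the ES array and 139 on the Sox1 array and at 5.0 on the ES array and 64.4 on the Sox1 array.

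Of 70 G protein-coupled receptor genes measured 10 were higher and 0 lower, and most of the rest were undetected. With averaged probe sets 6 were higher. Ednrb, an endothelin receptor of radial glia and neural crest, was at least 55.6-fold higher, at 35.7 on the ES array and 4378 on the Sox1 array, though a further probe set gave 1.11. Cxcr4 and Ackr3, both receptors for the chemokine Cxcl12, were at 136 on the ES array and 2199 on the Sox1 array and at 206 on the ES array and 3017 on the Sox1 array. Lpar4, a receptor for lysophosphatidic acid, was 15.5-fold higher, at 292 on the ES array and 4512 on the Sox1 array, and the adhesion receptor Adgrl2 14.9-fold higher, at 476 on the ES array and 7102 on the Sox1 array. F2r, the thrombin receptor, was bright on both, at 14216 on the ES array and 18776 on the Sox1 array. Of 40 ligand-gated channel genes 2 were higher, Grik3, a kainate receptor subunit, 5.94-fold, at 404 on the ES array and 2399.8 on the Sox1 array, and Glra1, a glycine receptor subunit, at least 6.02-fold, at 14.4 on the ES array and 474 on the Sox1 array. Chrna9, a nicotinic subunit, was at least 4.58-fold lower, at 360.5 on the ES array and 4.3 on the Sox1 array. For this channel list averaged probe sets gave 1 higher and 0 lower, and the low level at the 25th percentile 7 higher.

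Cytokine receptor genes gave 3 lower and 0 higher of 35, and the 3 belong to the pathway of leukemia inhibitory factor. The receptor gene Lifr was 12.6-fold lower, at 6517 on the ES array and 516 on the Sox1 array, Stat3, its signal transducer, 5.98-fold lower, at 1164 on the ES array and 194.5 on the Sox1 array, and Socs3, its target and feedback inhibitor, 4.11-fold lower, at 10929 on the ES array and 2661.5 on the Sox1 array. Other probe sets were at -1.78 for Lifr and -0.87 for Stat3. The shared receptor chain Il6st was at 626.5 on the ES array and 276 on the Sox1 array. By the protocol this factor was in the ES cell medium, and the labels do not say whether it was in that of the Sox1 cells, so medium and cell type cannot be told apart here.

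Among 40 nuclear receptors 5 were higher and 3 lower. Averaged probe sets left 2 higher, the low level at the 60th percentile 3 higher and at the 25th percentile 5 lower. The COUP factors were higher, Nr2f1 and Nr2f2 as given above and Nr2f6 4.78-fold, at 326 on the ES array and 1558.5 on the Sox1 array. Nr4a2, a factor of dopamine neurons, was at least 6.59-fold higher, at 58.7 on the ES array and 519 on the Sox1 array, and Nr4a3 at 9.4 on the ES array and 355 on the Sox1 array. Further probe sets gave 1.69 for Nr2f6 and 1.04 for Nr4a2. The lower receptors were Esrrb, Nr0b1, at 1918 on the ES array and 142 on the Sox1 array, and Nr5a2, at 984 on the ES array and 210.2 on the Sox1 array, with the nearest of its other probe sets to 0 at -1.85, which ES cells use to keep Pou5f1 active. Nr6a1, the germ cell nuclear factor that represses Pou5f1, was at 2539 on the ES array and 3708 on the Sox1 array.

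Set beside the other arrays, 582 of the 653 higher genes, or 89.1%, were also detected in granule cells, against 90.5% of all genes detected on the Sox1 array. Of the 549 lower genes 495, or 90.2%, were also detected on the array labelled HB9-GFP+, against 91.6% of all genes detected on the ES array. Both shares lie near those of all genes, and the probe set of each gene was chosen for its mean over the same 4 arrays. That array goes against its label in carrying a pluripotency profile, with Pou5f1 at 11188 and Nanog at 7701, so it does not serve here as a motor neuron reference. Some genes were far brighter on the Sox1 array than on any of the others. Hoxb1 was at 23.5 in granule cells and 25 in the cells labelled HB9-GFP+, and Dbx1 at 33.4 and 4.1. Crabp2 was at 20.6 and 217. Probe sets could be compared for 442 called genes, and in 439 all detected probe sets pointed the same way, with 189 beyond 4-fold in each. The called probe set is among those compared, and probe sets undetected on both arrays were left out. No such share was taken for uncalled genes, so these counts are a description only.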

How the data were processed

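RNA of ES cells, sorted Sox1 neural stem cells, granule cells and cells labelled HB9-GFP+ was measured on 1 mouse Affymetrix array each. The authors deposited linear intensity values for 45101 probe sets, including 64 controls. The submitters' processing notes name GCRMA, with no version, while the 2% trimmed mean of every array equals 500.0, which is a scaling that another Affymetrix method applies, so the summary step is not settled. Scaling to 1 mean assumes equal total signal per array, and the correction for background acts most on dim genes, which is why dim values were raised to a low level. Further steps are not given in the sources used here.

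Each gene took the probe set of highest mean log2 intensity over the 4 arrays among the 34958 probe sets with 1 symbol in the platform annotation, and 18193 genes resulted. Left out were 932 probe sets with more than 1 symbol and 9211 with none. Symbols of 34754 probe sets matched RefSeq. The low level was the mean over arrays of the median log2 intensity, 6.30, and detection lay 1 log2 unit above. Calls needed detection on the brighter array and a difference of 2 log2 units. With 1 array a group there is no replicate, no test and no p-value, and precision is limited by the number of arrays. The script was tested on simulated data.

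The 55 gene lists hold 1701 genes, of which 1574 were measured (19 through a synonym) and 127 were not analysed here. The comparison and the lists were chosen with earlier results of these data known. Named genes were the 12 largest differences each way among genes at or above the low level on both arrays, the 12 brightest each way against the low level, up to 5 called members of each list and direction or all calls of a list with 6 or fewer, and bright members less than 2-fold apart. Other list members are given by their signals. Where another detected probe set of a called gene fell short of 4-fold, its log2 difference is given. Promoters came from RefSeq's table, build GRCm38.p6. Alternatives were quantile and reference-gene scaling, other choices of probe set, low level, detection and fold, and log2 of the intensity plus the low level. A representative by linear mean was added after the data were seen. Python 3.11.15, numpy 2.4.6, pandas 2.3.3 and scipy 1.17.1 were used.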

Additional observations from a re-analysis of the deposited data

Results flagged for a closer look

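Probe sets without a gene symbol lie outside the comparison of genes and carried signals of their own. Of 9160 such probe sets 1993 were detected on either array, and by the 4-fold rule 70 were higher and 114 lower on the Sox1 array, together 9.23% of those detected. Probe set 1418357_at was at 116.3 on the ES array and 6395 on the Sox1 array, and probe set 1438989_s_at at 80.4 and 3205. In the other direction probe set 1449254_at was at 10738 and 292.3, 36.7-fold lower, and probe set 1434025_at at 20034 and 865.1, 23.2-fold lower. The files used here do not pair these probe sets with a gene.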

How the results depend on the processing

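No call turned to the opposite direction under any of the 13 settings, the main one among them. For many of these the outcome was fixed. Other low levels, detection levels or folds, and log2 of the intensity plus the low level, keep the probe set and values of each gene. They could not turn a call, and only the choices of scaling and of probe set could. The 653 higher and 549 lower genes became 387 and 422 when all probe sets of a gene were averaged. They became 914 and 991 with the low level at the 25th percentile, and 510 and 389 with it at the 60th. A 2-fold rule gave 2004 and 2035, and an 8-fold rule 271 and 173. Without probe sets of shared binding the counts were 562 and 466, and with log2 of the intensity plus the low level 497 and 399. The other settings, which were quantile scaling, reference-gene scaling, the brightest probe set of the 2 arrays, a higher detection level and the linear mean (chosen after seeing the data), stayed within 508 to 674. The detection level could not change a count by construction. Shifts of list medians were counted past a fixed cut, set slightly under the pooled SD between probe sets of 0.56. They passed it for 14 of 55 lists with the low level at the 25th percentile and for 12 with the mean over probe sets. The median changed sign for cholesterol synthesis from 0.05 to -0.06 with the mean over probe sets, and Polycomb from 0.05 to -0.12 without probe sets of shared binding and -0.08 with the linear mean, and for the reference genes from 0.00 to -0.17 and -0.16 in the first and second of these settings. The median of POU and Sox paralogs fell from 0.96 to 0.00 with the mean over probe sets. Of 219 higher and 117 lower calls among listed or named genes, quantile scaling ended 3 and 4, reference-gene scaling 8 and 7, and the mean over probe sets 89 and 30. The median of Hox paralogs 1 to 5 went from 1.77 to 0.69 with the mean over probe sets and to 0.00 without probe sets of shared binding, and that of imprinted genes from 1.70 to 0.41 without them. No paired analysis was possible because each group has 1 array. Leaving out an array was not possible for the same reason. Depth is limited by signal over background: genes at the low level on 1 array give only lower bounds, and nothing here covers biological variation.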

Other observations

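Transcripts of the sex chromosomes were chosen after their values were seen. Xist, the RNA that coats an inactive X chromosome, was at 873 on the ES array and 178 on the Sox1 array, 7315 in granule cells and 159 in the cells labelled HB9-GFP+. Eif2s3y, a gene of the Y chromosome, was at 4848 on the ES array and 2782 on the Sox1 array, with 1662.5 and 1426 in the other samples. Uty, also of the Y chromosome, was at 483 on the ES array and 994 on the Sox1 array. All 4 arrays thus had Xist and Eif2s3y above detection together, and the labels do not give the sex of any line.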
